A study of Homo sapiens with 12 samples.

Results

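The comparison is between a pair of cell lines derived from IGROV-1, an established human ovarian carcinoma line, in which CXCR4 was targeted by RNA interference. Clone I and clone II each carry a plasmid for a short hairpin RNA against CXCR4, and the hairpin of clone I has another sequence than that of clone II. The members are the 6 arrays titled shCXCR4 (I) and shCXCR4 (II), 3 per clone, of 12 arrays in all. The other 6 arrays come from Mock cells, a pool of clones that received a scrambled-sequence plasmid (3 arrays), and from Parental IGROV-1 cells that were not transfected (3 arrays). Clones and Mock cells were transfected with Lipofectamine 2000 and selected in puromycin at 4 µg/ml for 30 days, and 6 µg of total RNA went onto each array. Each hairpin is represented by 1 clone, so the hairpin's sequence and the clone cannot be told apart, and nothing in the sources used here says that the 3 arrays of a group came from separate cultures. The p-values therefore rest on how far arrays of 1 group differ from each other, and that spread could be technical.

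CXCR4 is a G protein-coupled receptor for the chemokine CXCL12; its engagement drives migration, survival signalling through ERK and AKT, and, in ovarian carcinoma, spread within the peritoneum. A short hairpin RNA is cut by Dicer into a small interfering RNA that guides Argonaute to the matching mRNA, and different hairpins to the same mRNA are used side by side because their effects on other mRNAs need not be shared. Expression was measured on Affymetrix arrays, on which a probe set is a group of short oligonucleotides for 1 transcript region, and values are on the log2 scale, where a difference of 1 is a doubling. The contrast was tested with limma on 41091 probe sets that carry a single gene symbol, with a Benjamini-Hochberg adjusted p under 0.05 as the threshold. Counts over genes use 1 probe set for each of 19775 genes, the one with the highest mean over the 12 arrays. Differences are given as clone I minus clone II.

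The arrays were alike in their overall distribution. Their medians ran from 4.33 to 4.34 in clone I and from 4.31 to 4.39 in clone II, the highest being that of clone II replicate 1, and correlations within a clone were 0.997 to 0.998 in clone I and 0.996 to 0.997 in clone II. The mean level of the epithelial markers EPCAM, KRT8, KRT18, KRT19, CDH1 and CLDN4 was 9.47 to 9.48 in clone I and 9.10 to 9.11 in clone II, whereas 5 leukocyte markers averaged 3.65 to 3.72 and 3.64 to 3.70, below the array medians in both. Fibroblast markers lay at 4.20 to 4.30 and 4.24 to 4.49, and endothelial markers at 4.34 to 4.49 and 4.34 to 4.44. The array's 3 probe sets for 18S ribosomal RNA stood apart: their means were 1.38, 1.73 and 2.12 higher in clone I. Clone I replicate 1 had the highest value of the 6 clone arrays on each of the 3, and Parental arrays were higher still on 1 of them. Their part in the results was not tested; counts without that array are given beside the results it moved.

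CXCR4 itself was lower in both clones than in either control, and the remaining level was not the same on all of its probe sets. On 217028_at, the brightest of 3, clone I gave 7.06, 7.10 and 7.11 and clone II gave 6.39, 6.73 and 6.75, against 8.51 to 8.64 in Mock and 8.28 to 8.42 in Parental cells. All arrays of clone I lay above all arrays of clone II, and those of both clones lay below all control arrays. These means leave 35.6% of the Mock level in clone I and 25.7% in clone II, and the difference between the clones was 0.47 ± 0.09 (SE, adjusted p = 0.00899, limma). On 209201_x_at the difference was 0.26 (adjusted p = 0.262) and on 211919_s_at it was 0.17 (adjusted p = 0.463), with overlapping arrays on both, and 45.9% and 47.7% of the Mock level left in clone I against 38.5% and 42.3% in clone II.

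Of the 19775 genes, 1031 passed the test between the clones, 5.21% of all. Of these, 704 were higher in clone I (3.56%) and 327 were lower (1.65%), while the median difference over all genes was -0.0038. The differences were mostly small, since 139 genes higher in clone I and 18 lower in it reached 1.5-fold. At least 2-fold was reached by 39 genes (0.197%), 38 of them higher in clone I (0.192%), and 3-fold by 5, all higher in clone I. The single gene lower in clone I by 2-fold (0.00506%) was LPAR3, a receptor for lysophosphatidic acid, with means of 4.58 in clone I and 5.65 in clone II (difference -1.08, adjusted p = 3.21e-05, limma); it is named here after its values were seen. Per probe set the count was 1687 (4.11%), of which 1127 were higher (2.74%) and 560 lower in clone I (1.36%). The root mean square difference between the clones' mean values over the 41091 probe sets was 0.162, smaller than for any other pair of the 4 groups (0.215 to 0.259). Side by side, and sharing arrays with the contrast between the clones, 20.6% of genes passed the test in clone I against Mock, 22.5% in clone II against Mock, 14.5% and 14.4% in clones I and II against Parental, and 12.5% in Mock against Parental.

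The 3 arrays of clone I lay wholly above or below those of clone II for 4691 genes (23.7%), the background for each statement that the clones did not overlap. The count of calls depended on single arrays. Without clone I replicate 1, 2 or 3, it was 528, 546 and 603 genes, and without clone II replicate 1 or 2, it was 644 and 595, against 1225 without clone II replicate 3. With only the 6 clone arrays in the fit it was 488, and of the lists described below the higher members past the test then numbered 5 for junctions and keratins, 7 for immediate-early genes, 4 for ovarian markers and 2 for class I presentation, and the lower members of the replication list 3. The count at 2-fold moved less, from 32 to 42. For 15 of the 39 genes the brighter clone's mean was under 6, in the lower part of the scale.

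**Figure D1:**
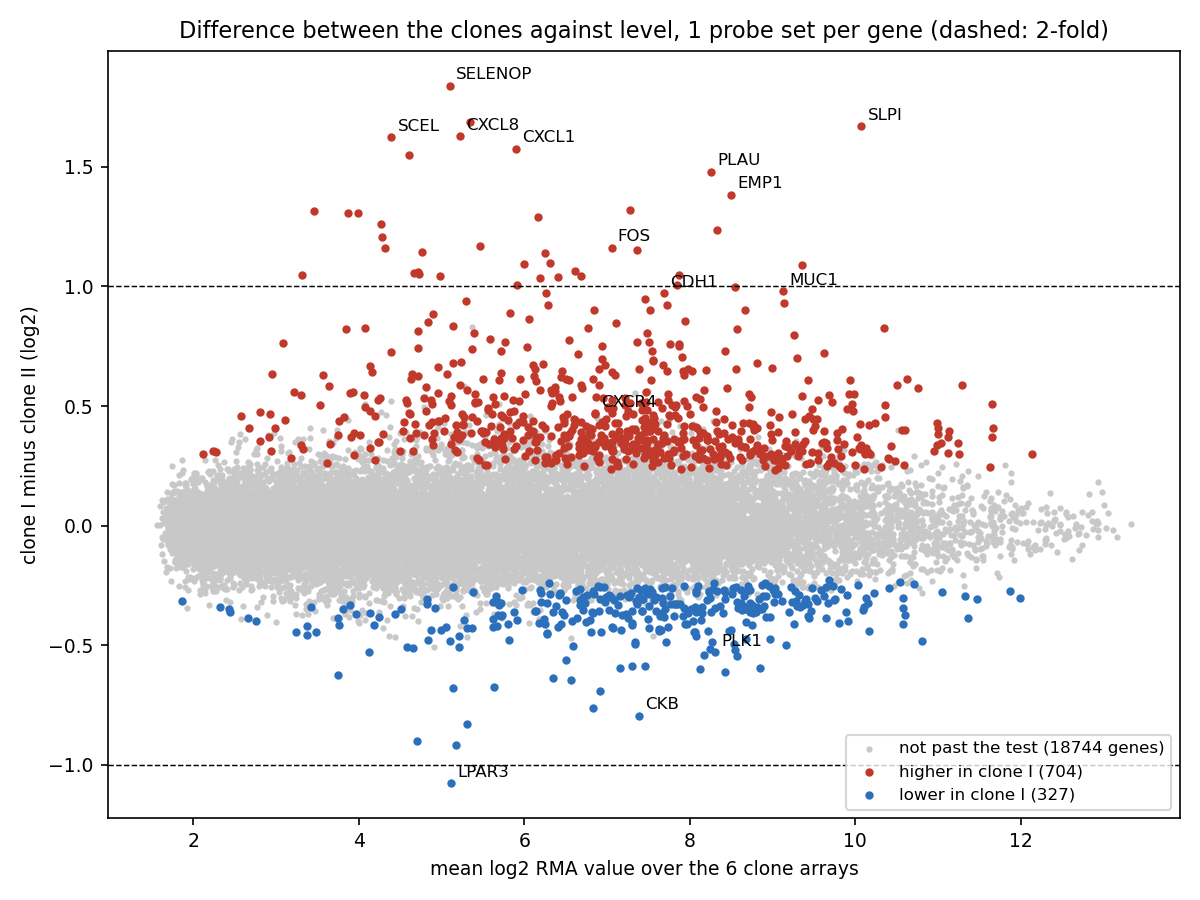
Each point is 1 of 19775 genes, with the mean log2 value over the 6 clone arrays on the x axis and the difference clone I minus clone II (log2) on the y axis; red and blue points passed the test (704 higher and 327 lower in clone I), grey points did not, and dashed lines mark 2-fold. Beyond 2-fold, 38 genes lie above and LPAR3 alone lies below.

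Among the largest differences were 4 chemokines of the ELR group, secreted ligands of CXCR1 and CXCR2 that recruit neutrophils, promote new vessel growth and are produced by many carcinoma cells. Their genes lie close together on chromosome 4. Their promoters are shown because the members that passed the test and the pair CXCL5 and CXCL6, which did not, carry the same 9-base word, GGAATTTCC, which is a form of the binding sequence of NF-κB factors. The sequences are the 250 bases before the start in RefSeq (GRCh38.p14), read 5′ to 3′ on the gene's strand, with the word in capitals. They lie at chr4:73740319-73740568 (plus strand) for CXCL8, chr4:73869143-73869392 (plus strand) for CXCL1, chr4:74038690-74038939 (minus strand) for CXCL3, chr4:74099196-74099445 (minus strand) for CXCL2, chr4:73998678-73998927 (minus strand) for CXCL5 and chr4:73836428-73836677 (plus strand) for CXCL6.
CXCL8: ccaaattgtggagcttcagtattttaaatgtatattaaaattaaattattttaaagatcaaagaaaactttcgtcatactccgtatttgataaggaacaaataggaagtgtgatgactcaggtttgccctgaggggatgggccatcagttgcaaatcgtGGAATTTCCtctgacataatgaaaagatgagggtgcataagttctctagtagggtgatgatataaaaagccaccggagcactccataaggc
CXCL1: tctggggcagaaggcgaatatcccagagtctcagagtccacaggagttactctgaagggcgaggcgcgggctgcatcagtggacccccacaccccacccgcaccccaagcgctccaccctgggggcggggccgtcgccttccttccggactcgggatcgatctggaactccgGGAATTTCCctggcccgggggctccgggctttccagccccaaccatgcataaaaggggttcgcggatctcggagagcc
CXCL3: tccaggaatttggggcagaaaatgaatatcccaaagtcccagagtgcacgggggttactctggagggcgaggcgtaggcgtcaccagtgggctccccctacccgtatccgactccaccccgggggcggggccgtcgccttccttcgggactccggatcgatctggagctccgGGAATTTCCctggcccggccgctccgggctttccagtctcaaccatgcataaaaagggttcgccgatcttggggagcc
CXCL2: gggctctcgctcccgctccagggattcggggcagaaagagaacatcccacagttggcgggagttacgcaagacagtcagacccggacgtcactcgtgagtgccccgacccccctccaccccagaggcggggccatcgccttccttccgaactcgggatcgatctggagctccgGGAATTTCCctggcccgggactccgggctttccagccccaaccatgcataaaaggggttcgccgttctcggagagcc
CXCL5: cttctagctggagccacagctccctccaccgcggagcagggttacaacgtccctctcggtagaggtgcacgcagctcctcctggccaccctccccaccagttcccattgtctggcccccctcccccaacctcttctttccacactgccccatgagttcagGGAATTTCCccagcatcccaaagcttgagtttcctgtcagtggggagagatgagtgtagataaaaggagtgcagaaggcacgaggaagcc
CXCL6: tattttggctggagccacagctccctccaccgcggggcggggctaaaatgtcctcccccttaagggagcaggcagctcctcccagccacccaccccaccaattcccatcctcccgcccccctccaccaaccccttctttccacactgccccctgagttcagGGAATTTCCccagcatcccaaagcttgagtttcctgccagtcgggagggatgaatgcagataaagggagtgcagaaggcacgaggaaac
On either strand (GGAATTTCC or GGAAATTCC) the word was found in 0.413% of 35116 promoters of this length and in 0.502% of 27305 genes, and in 6 of the 9 genes of the ELR list: the 4 that passed the test, CXCL8, CXCL1, CXCL2 and CXCL3, and CXCL5 and CXCL6, which did not. The match is a description of letters and not of a bound site.

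CXCL8, which encodes interleukin-8, gave 6.08, 6.05 and 6.00 in clone I and 4.46, 4.36 and 4.42 in clone II, with 4.40 to 4.50 in Mock and 4.98 to 5.07 in Parental cells. Clone I lay above all other arrays, and clone II overlapped Mock. The difference was 1.63 ± 0.06 (SE, 3.09-fold, adjusted p = 2.37e-08, limma), and the gene's other probe set, 211506_s_at, gave 1.16 (adjusted p = 0.00106).

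CXCL1 had values of 6.63, 6.76 and 6.66 in clone I against 4.84, 5.14 and 5.35 in clone II, 5.32 to 5.52 in Mock and 4.43 to 4.88 in Parental cells. Here too clone I was above every other array. The difference was 1.58 ± 0.13 (adjusted p = 8.92e-06). For CXCL2 the values were 8.35, 8.45 and 8.40 against 7.08, 7.33 and 7.63, with 7.76 to 7.81 in Mock (difference 1.05 ± 0.11, adjusted p = 6.56e-05), on a probe set whose suffix, _x_at, marks probes that can also match other transcripts. Its other probe sets, 230101_at and 1569203_at, had means between 2.25 and 3.41 and gave 0.15 and -0.03 (adjusted p = 0.483 and 0.882). CXCL3 averaged 7.97 in clone I and 7.07 in clone II (0.90 ± 0.10, adjusted p = 0.000195) on a probe set without such a suffix. CXCL5 and CXCL6 were near the lower end of the scale in both clones (means of 2.01 to 2.24) and gave -0.09 and -0.16, neither past the test. The receptors CXCR2 and CXCR1 gave 0.14 and -0.05 and also did not pass. Of the 9 genes of the ELR list, 4 passed (44.4%, against 5.21% of all genes). Without the probe sets named _x_at or _s_at, the list's count fell from 4 to 2, since both probe sets of CXCL8 and the bright one of CXCL2 carry such a suffix.

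Of the 16 genes of the CXCR4 axis list, 3 passed the test (18.75%, against 5.21% of all genes). All were higher in clone I: CXCR4, CXCL8 and CXCL1. The list's median difference was 0.08. The ligand CXCL12 gave 4.85, 4.73 and 4.97 in clone I and 4.86, 4.94 and 4.85 in clone II (difference -0.04, adjusted p = 0.899), and ACKR3, the second receptor for CXCL12, gave 0.04 (adjusted p = 0.881). Other cytokines and signalling genes of the list that have been tied to CXCR4 in ovarian cancer did not pass either, with 0.10 for TNF, 0.04 for CCL2, -0.08 for IL6, -0.09 for MIF, 0.18 for VEGFA, 0.06 for NOTCH3 and -0.01 for JAG1. HES1, a Notch target, gave 8.38, 8.44 and 8.34 in clone I and 7.73, 8.03 and 8.41 in clone II (0.33, adjusted p = 0.271). Clone II replicate 3 alone reached the values of clone I, and without it the difference was 0.51 (adjusted p = 0.0441, limma). That fit leaves out the array that went against the difference, so its p-value is no support for one. Other probe sets of HES1, 203395_s_at and 203393_at, gave 0.21 and 0.00091 and did not pass (adjusted p = 0.423 and 0.997).

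**Figure D2:**
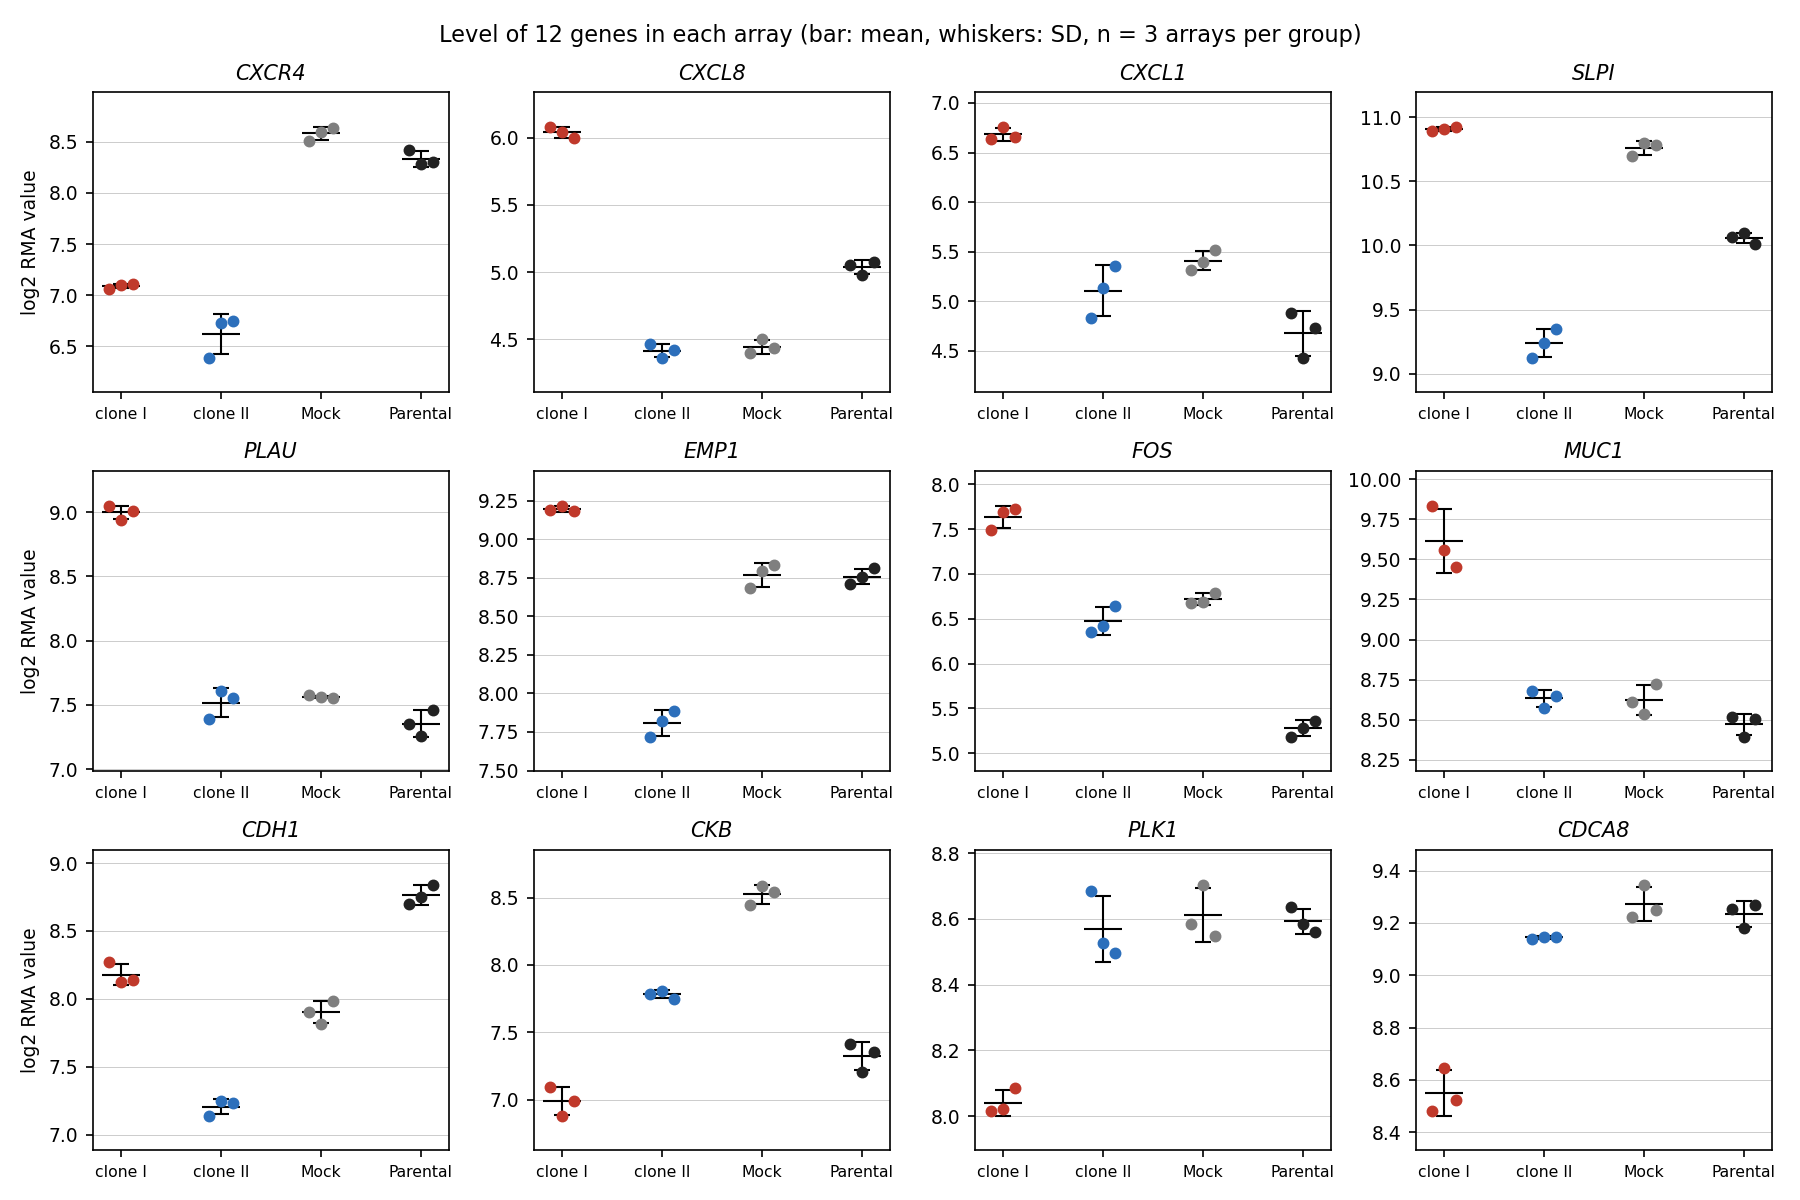
Log2 value of 12 genes in each array; the x axis gives the 4 groups, each point is 1 array, and bars with whiskers show the mean and SD (n = 3 arrays per group). CXCL8 and PLAU stand high in clone I alone, SLPI stands low in clone II alone, and PLK1 and CDCA8 stand low in clone I alone.

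Other secreted products and extracellular proteases were among the genes highest in clone I. PLAU encodes urokinase, the serine protease that activates plasminogen at the cell surface. It gave 9.04, 8.94 and 9.01 in clone I, 7.39, 7.61 and 7.55 in clone II, 7.55 to 7.57 in Mock and 7.26 to 7.46 in Parental cells, so that clone I stood apart from all the others (1.48 ± 0.07, adjusted p = 1.58e-07). A further probe set, 211668_s_at, gave 1.35 (adjusted p = 4.78e-07). MMP1, interstitial collagenase, gave 4.58, 4.44 and 4.55 against 3.00, 3.25 and 3.39 (1.31 ± 0.13, adjusted p = 4.19e-05), in the lower part of the scale, with Parental cells higher still at 4.88 to 5.02. ADAMTS1, a secreted metalloprotease, was higher by 0.64 (adjusted p = 0.000819). In the list of proteases and their inhibitors, 6 of 30 passed (20%, against 5.21% of all genes). All were higher in clone I, and the median was 0.06. MMP2, MMP9 and MMP14, which are often measured in invasion studies, gave -0.07, -0.12 and 0.14 and did not pass.

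SLPI, an inhibitor of leukocyte proteases that is abundant in ovarian carcinoma, differed the other way round with respect to the controls. Its values were 10.89, 10.91 and 10.93 in clone I, 9.13, 9.24 and 9.35 in clone II, 10.70 to 10.80 in Mock and 10.02 to 10.10 in Parental cells. Clone II was thus the lowest of the 4 groups, with no overlap. The difference between the clones was 1.67 ± 0.07 (3.18-fold, adjusted p = 2.60e-08). Against Mock, clone I gave 0.15 (adjusted p = 0.16) and clone II gave -1.52 (adjusted p = 4.4e-09).

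Among 24 genes used as ovarian cancer lineage or serum markers, 7 passed the test (29.2%, against 5.21% of all genes). All 7 were higher in clone I, with a median of 0.04 over the list. MUC1, a membrane mucin, gave 9.83, 9.56 and 9.45 in clone I against 8.68, 8.57 and 8.65 in clone II, 8.54 to 8.72 in Mock and 8.40 to 8.52 in Parental cells (0.98 ± 0.09, adjusted p = 3.41e-05), and 2 further probe sets gave 1.17 and 0.97. FOLR1, the folate receptor alpha, was 0.59 higher on 204437_s_at (adjusted p = 0.000466) but 0.02 higher on 211074_at (adjusted p = 0.974). The transcription factors PAX8 and WT1 gave 0.10 and 0.13, MUC16, which carries the CA-125 antigen, gave -0.15 and WFDC2, the gene of HE4, gave 0.03, none past the test. Of the secretoglobins, small secreted proteins of mucosal epithelia, SCGB2A1 was 0.67 higher in clone I (7.25, 7.32 and 7.34 against 6.58, 6.50 and 6.83, adjusted p = 0.00104). In both clones it was above Mock, which ran from 5.16 to 5.39. The marker count of 7 fell to 4, 3, 4 and 4 without clone I replicate 1, clone I replicate 2, clone II replicate 1 and clone II replicate 2, and to 2 without probe sets named _x_at or _s_at.

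Of 31 cell-cell junction and keratin genes, which hold epithelial sheets together, 9 passed (29.0%, against 5.21% of all genes), all higher in clone I. The list's median was 0.17, and 6 of the 31 differences were negative, down to -0.30. CDH1 encodes E-cadherin, the adhesion molecule of adherens junctions. It gave 8.27, 8.13 and 8.14 in clone I and 7.14, 7.25 and 7.23 in clone II, with 7.82 to 7.98 in Mock and 8.70 to 8.84 in Parental cells, no 2 groups overlapping (0.97 ± 0.07, adjusted p = 4.43e-06). ELF3, an epithelial transcription factor, was 0.67 higher (adjusted p = 0.000138). The desmosomal plakophilin PKP2 was 0.46 higher on its brightest probe set (adjusted p = 0.0108), but its other probe set, 214154_s_at, gave 0.15 (adjusted p = 0.656). Its call ended on the mean of both (0.30, adjusted p = 0.0854) and with only the 6 clone arrays in the fit (adjusted p = 0.058). The paired keratins of simple epithelia were both higher, KRT18 by 0.37 (adjusted p = 0.00462) and KRT8 by 0.35 (adjusted p = 0.0103). EPCAM gave 0.18, CLDN4 0.04 and CLDN7 -0.08, none past the test. The count was 5 without clone I replicate 3 and 5 without clone II replicate 2, and 4 without probe sets named _x_at or _s_at. Of a mesenchymal and matrix list of 32 genes, 0 passed (limma; 3 at an unadjusted p under 0.05), and its median was -0.02. In that list VIM gave 0.11, FN1 0.06, ZEB1 0.12 and CDH2 0.02.

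Integrins and laminins, the receptors and ligands that anchor epithelial cells to the basement membrane, were called for 9 of 29 genes. This was 31.0%, against 5.21% of all genes. In clone I 8 were higher and 1 lower, and the list's median was 0.09. ITGA3, a laminin-binding integrin chain, gave 8.19, 8.11 and 8.13 in clone I and 7.27, 7.43 and 7.44 in clone II (0.76 ± 0.08, adjusted p = 7.45e-05), with Mock at 7.87 to 8.15 and overlapping clone I. LAMB3, a chain of laminin-332, gave 7.97, 7.90 and 7.81 against 7.20, 7.13 and 7.29 (0.69 ± 0.07, adjusted p = 8.39e-05). ITGB4, a hemidesmosome component, was 0.50 higher on its brightest probe set (adjusted p = 0.00724) and 0.40 on 204989_s_at (adjusted p = 0.0359), while the dimmer 230704_s_at and 214292_at gave -0.20 and -0.18 without passing. The lone member lower in clone I, LAMA2 (-0.37, adjusted p = 0.0233), did not pass without clone I replicate 1 or 3 or clone II replicate 1 or 2 (adjusted p = 0.088, 0.0959, 0.0723 and 0.0802). The count of higher members was 4 without probe sets named _x_at or _s_at.

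Immediate-early genes, which are induced within minutes of growth factor signalling, and the feedback inhibitors that ERK induces were listed together. Of 25 measured, 11 passed (44%, against 5.21% of all genes), all higher in clone I. The median was 0.21, with 24 of 25 differences above 0. FOS, a component of the AP-1 transcription factor, gave 7.49, 7.70 and 7.72 in clone I, 6.35, 6.42 and 6.65 in clone II, 6.67 to 6.79 in Mock and 5.19 to 5.37 in Parental cells (1.16 ± 0.09, adjusted p = 6.51e-06). PHLDA1, a pleckstrin-homology-like protein induced by ERK, gave 7.87, 7.98 and 7.95 against 6.42, 6.65 and 6.77 (1.32 ± 0.09, adjusted p = 1.51e-06); of its 5 other probe sets, 4 were also higher and 217998_at gave -0.14 (adjusted p = 0.514). Mock (7.75 to 7.87) lay near clone I for this gene, whereas for FOS it lay near clone II. IER3, a stress-inducible survival gene, gave 9.66, 9.66 and 9.65 against 8.90, 8.83 and 8.86 (0.80 ± 0.07, adjusted p = 1.35e-05). The other called members were the phosphatases DUSP1, DUSP5 and DUSP6, which inactivate MAP kinases, the receptor signalling inhibitors SPRY1 and SPRY2, and EGR1, IER2 and JUNB, with differences from 0.31 for SPRY1 to 0.72 for DUSP1. MYC, JUN and CCND1 gave 0.10, 0.21 and 0.22 and did not pass. The count was 6 without any one of the clone I arrays and 7 without clone II replicate 1 or 2.

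NF-κB regulators and targets included 3 called genes of 19 (15.8%, against 5.21% of all genes), all higher in clone I, and the median was 0.06. IER3 was shared with the list above. NFKBIZ, a nuclear regulator of NF-κB, gave 9.66, 9.66 and 9.56 in clone I against 9.03, 9.09 and 9.14 in clone II and 9.04 to 9.08 in Mock (0.54 ± 0.07, adjusted p = 0.000819). TNFAIP3, the feedback inhibitor A20, was 0.34 higher (adjusted p = 0.0329), a call that ended without clone I replicate 1 (0.28, adjusted p = 0.147) or 2 (0.36, 0.088) and without clone II replicate 1 (0.32, 0.108) or 2 (0.35, 0.091). Its other probe set, 202643_s_at, gave 0.13 and did not pass (adjusted p = 0.477). NFKBIA, NFKB1 and RELA gave -0.03, 0.09 and 0.07 and did not pass. Among 22 inflammatory cytokines, 1 passed (4.55%, near the 5.21% of all genes). It was LIF (0.45, adjusted p = 0.0203), which did not pass without clone I replicate 1 or 2 or clone II replicate 1 or 2 (adjusted p = 0.0962, 0.0803, 0.084 and 0.0855). IL1A, IL1B and CCL20 gave 0.01, -0.06 and -0.01. Of 11 EGF receptor ligands and receptors, 2 passed (18.2%), both higher in clone I. One was the ligand TGFA (6.65, 6.66 and 6.64 against 6.18, 5.92 and 6.16; 0.56, adjusted p = 0.00103), whose other probe sets, 205015_s_at and 211258_s_at, gave 0.30 and 0.04 and did not pass (adjusted p = 0.0947 and 0.90). The other was the ligand NRG2 (0.35, adjusted p = 0.0369), which did not pass without clone I replicate 1 or 2 or clone II replicate 1 (adjusted p = 0.14, 0.128 and 0.124). EGFR gave -0.04 and ERBB2 0.04, neither past the test.

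**Figure D3:**
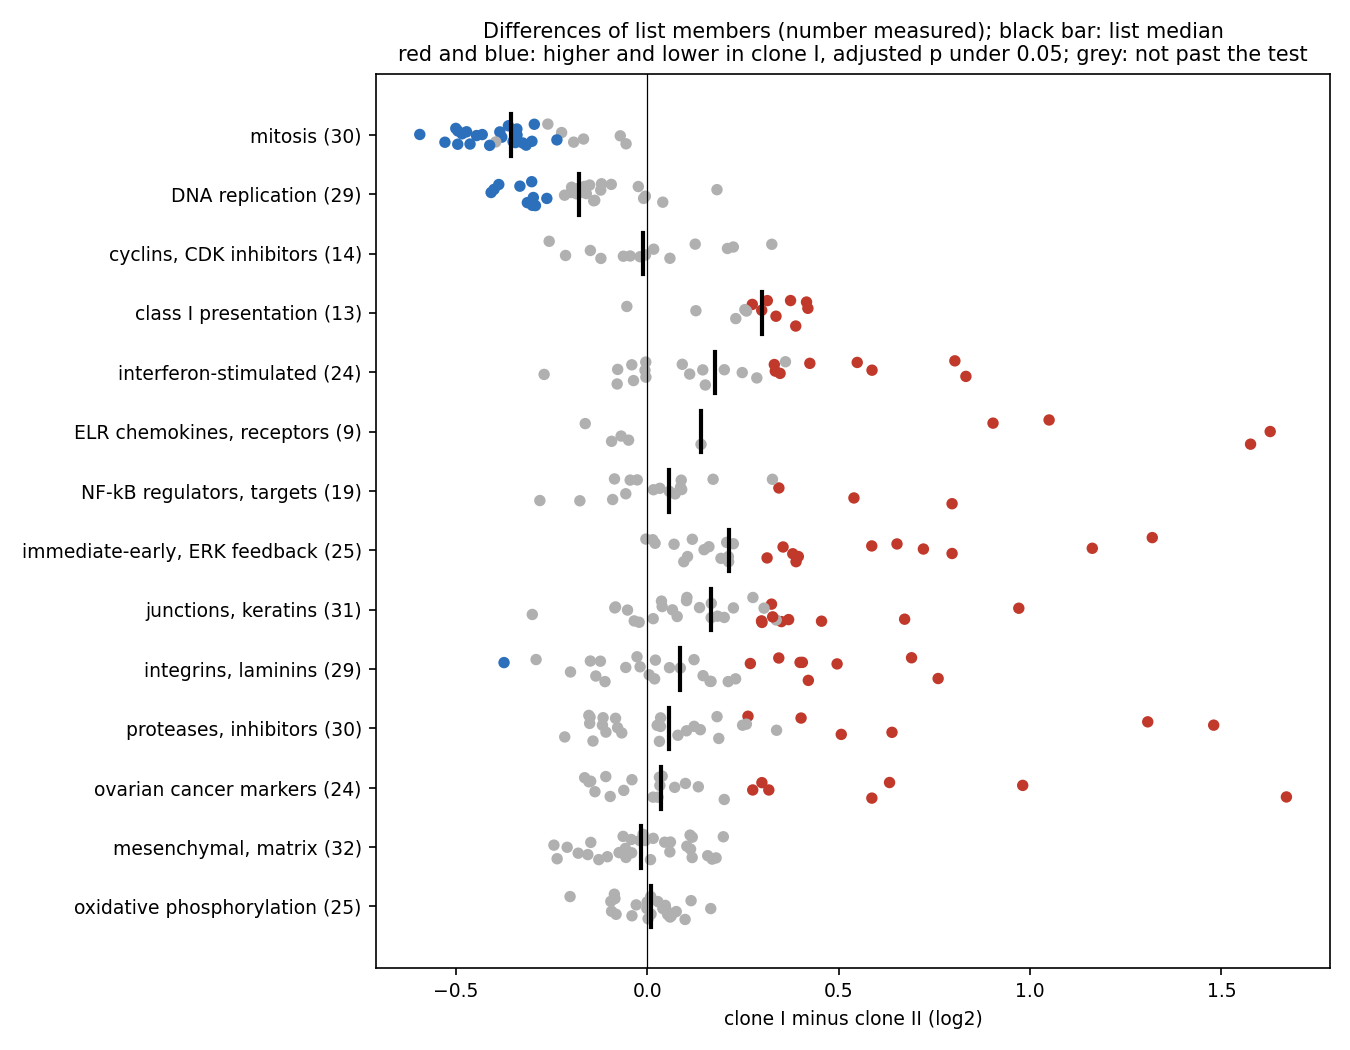
Difference clone I minus clone II (log2, x axis) of every measured member of 14 gene lists (y axis, number measured in brackets); each point is 1 gene, red and blue points passed the test, and the black bar is the list's median. The mitosis list lies wholly below 0 with a median of -0.36, and the class I presentation list has a median of 0.30.

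Genes of mitosis formed the list with the largest share of calls. All 30 members, which act in the spindle, the kinetochore, the checkpoint and cytokinesis, had a negative difference, and 23 of 30 passed the test, all lower in clone I, with a median of -0.36 against -0.0038 over all genes. Among all genes, 1.65% passed as lower in clone I. That share was not matched for level. The list's median level was 8.64 in clone I and 9.13 in clone II, against 5.37 and 5.36 over all genes. Promoters of both members with the largest difference, PLK1 and CDCA8, are shown because each holds a TTTGAA word close to its start, the sequence of the cell cycle homology region through which the DREAM complex acts on mitotic genes. They are the 250 bases before the start in RefSeq (GRCh38.p14), at chr16:23678639-23678888 (plus strand) and chr1:37692266-37692515 (plus strand), with the word in capitals.
PLK1: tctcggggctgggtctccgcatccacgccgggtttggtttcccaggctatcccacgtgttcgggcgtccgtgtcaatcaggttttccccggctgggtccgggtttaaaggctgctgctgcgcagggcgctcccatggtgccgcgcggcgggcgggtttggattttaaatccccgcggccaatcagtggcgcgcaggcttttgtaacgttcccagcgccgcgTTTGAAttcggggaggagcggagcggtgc
CDCA8: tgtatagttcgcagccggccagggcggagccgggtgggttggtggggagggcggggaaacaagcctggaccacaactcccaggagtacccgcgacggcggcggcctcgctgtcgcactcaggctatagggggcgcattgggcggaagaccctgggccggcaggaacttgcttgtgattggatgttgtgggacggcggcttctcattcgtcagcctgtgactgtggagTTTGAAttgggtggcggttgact
TTTGAA or its reverse complement TTCAAA was found in 13.3% of all promoters of this length and in 16.1% of 27305 genes. Of the 25 mitosis genes matched to a promoter, 13 held it, 8 of the 19 that passed the test among them. Of the matched genes not past the test, CDK1, KIF11, KIF23, CENPA and MKI67 held it and MAD2L1 did not. The word was thus not more frequent among the called members.

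PLK1, the kinase that drives entry into and passage through mitosis, gave 8.01, 8.02 and 8.09 in clone I, 8.68, 8.53 and 8.50 in clone II, 8.55 to 8.70 in Mock and 8.56 to 8.63 in Parental cells. Clone I was below every other array, and clone II overlapped both controls (-0.53 ± 0.07, adjusted p = 0.000761). CDCA8, the borealin subunit of the chromosomal passenger complex, gave 8.48, 8.65 and 8.52 against 9.14, 9.15 and 9.15, with 9.22 to 9.35 in Mock (-0.59 ± 0.07, adjusted p = 0.00017). The other subunits of that complex gave -0.43 for the kinase AURKB and -0.50 for BIRC5, both past the test. CENPF, a kinetochore protein, was lower by -0.50 on its brightest probe set (adjusted p = 0.0154) and by -0.45 on 209172_s_at (adjusted p = 0.0232). Its call ended without clone I replicate 2 or 3 or clone II replicate 1 (adjusted p = 0.0639, 0.07 and 0.0683). The cyclins CCNB1 and CCNB2 gave -0.35 and -0.34 and passed, whereas their kinase CDK1 gave -0.06 and did not. MKI67, the proliferation antigen, gave -0.40 (adjusted p = 0.0557). The list's count was 15 without clone I replicate 1, and 14 without probe sets named _x_at or _s_at. Over all settings other than leaving out an array, it ran from 1 to 25. In a test against a minimum fold of 1.2, PLK1 did not pass (adjusted p = 0.193, limma), whereas CDCA8 did.

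DNA replication genes followed with smaller differences. Of 29, 10 passed (34.5%, against 5.21% of all genes), all lower in clone I, and the median was -0.18. MCM7 and MCM2, subunits of the replicative helicase, gave 9.60, 9.62 and 9.57 against 10.04, 10.01 and 9.97 (-0.41, adjusted p = 0.00181), and 9.72, 9.66 and 9.74 against 10.21, 10.05 and 10.07 (-0.40, adjusted p = 0.00303). In both genes clone II overlapped Mock and clone I lay below it. RRM2, a ribonucleotide reductase subunit, was lower by -0.39 (adjusted p = 0.0035), or by -0.13 without passing (adjusted p = 0.344) in the fit without probe sets named _x_at or _s_at. PCNA gave -0.02. The count was 5 without clone I replicate 1 or 3 or clone II replicate 1, 6 without clone I replicate 2, 4 without clone II replicate 2, and 5 without probe sets named _x_at or _s_at. Over all settings other than leaving out an array, it ran from 0 to 17. Of the 14 G1 cyclins, their kinases and inhibitors, 0 passed (limma; 4 at an unadjusted p under 0.05), CDKN1A being at -0.0046 and CCNE1 at -0.02. Ribosomal proteins (16) and oxidative phosphorylation genes (25) also had 0 calls (limma; 0 and 2 at an unadjusted p under 0.05), with medians of 0.0016 and 0.0099.

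**Figure D4:**
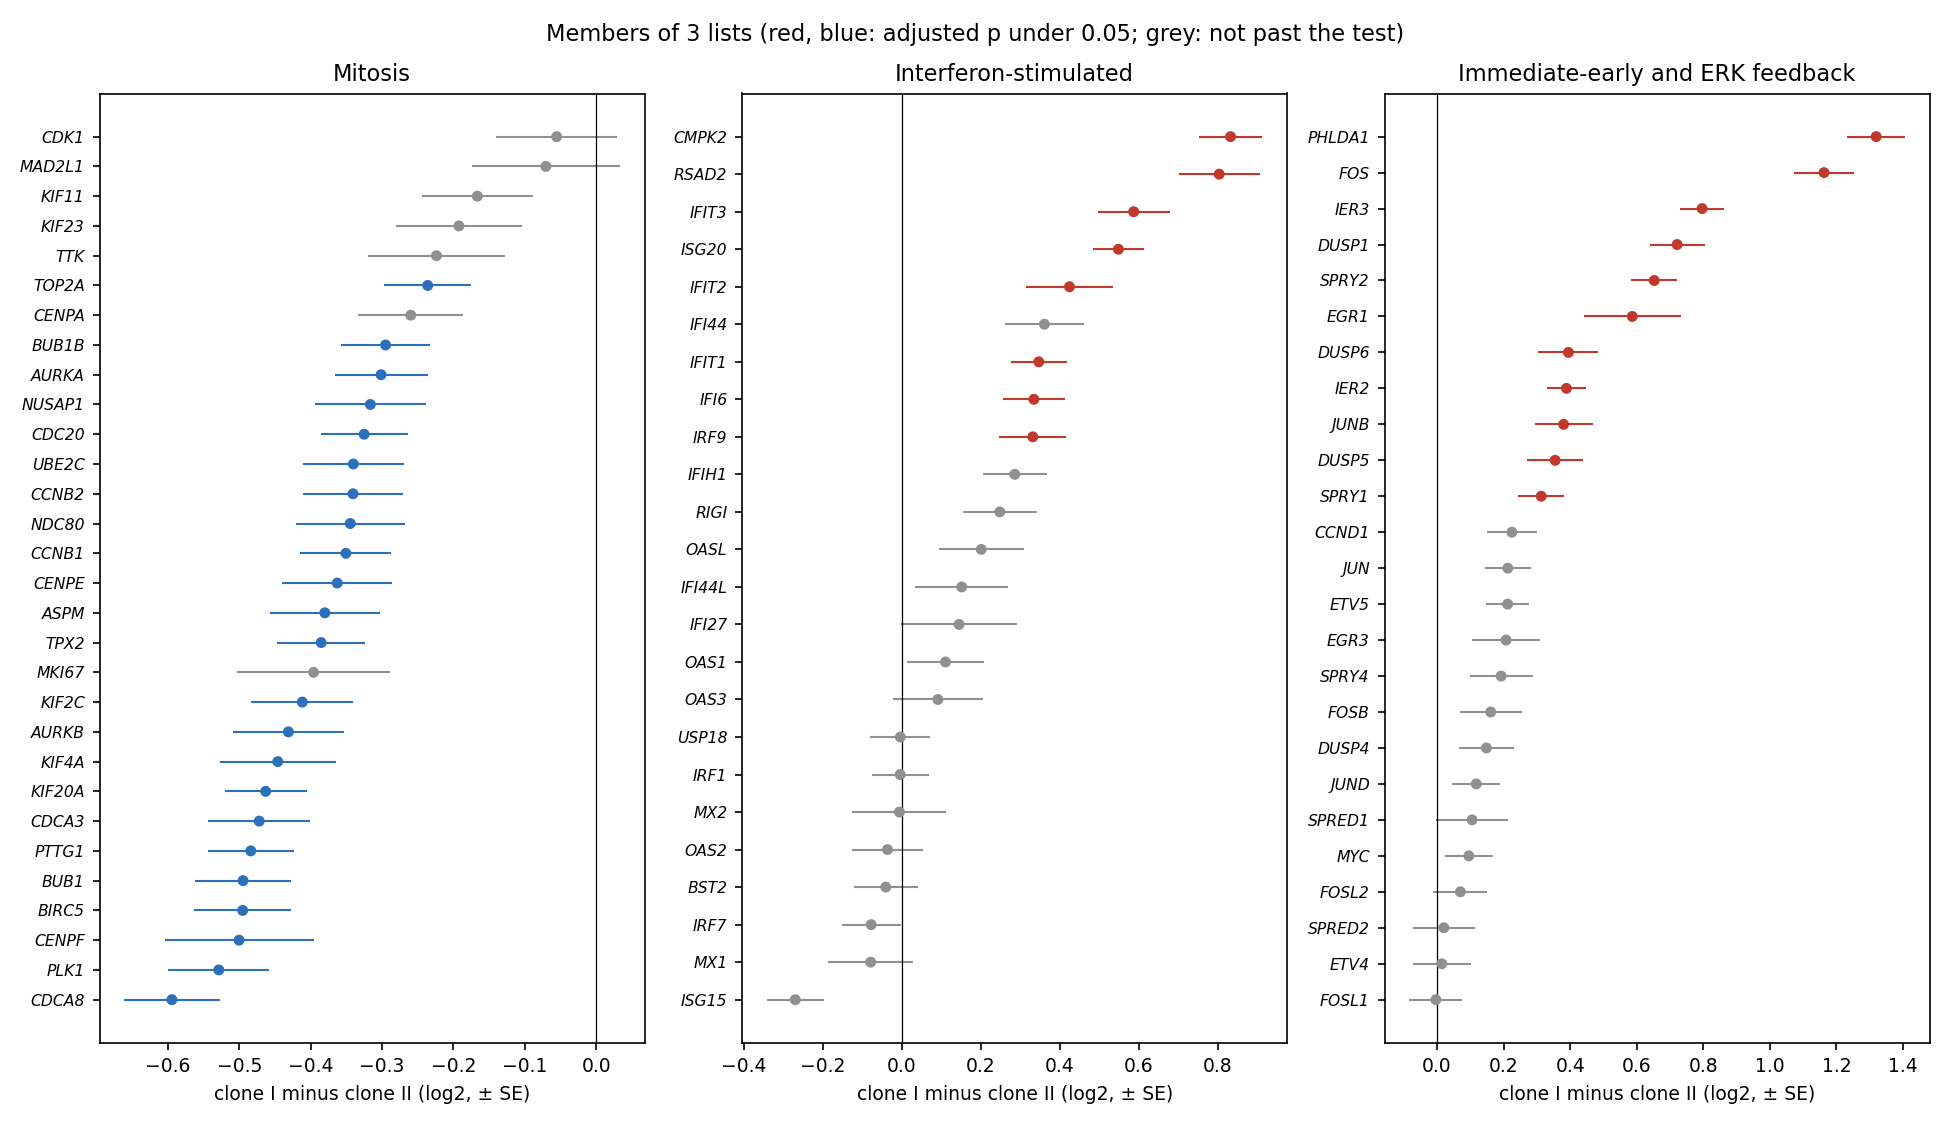
Difference clone I minus clone II (log2, with its standard error) for each member of the mitosis, interferon-stimulated and immediate-early lists; genes on the y axis, red and blue for those past the test, grey for the others. All 30 mitosis genes lie below 0, whereas the interferon-stimulated genes run from -0.27 (ISG15) to 0.83 (CMPK2).

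Interferon-stimulated genes, which respond to type I interferon and to double-stranded RNA, are of interest here because hairpin RNAs can themselves induce them. Of 24, 8 passed (33.3%, against 5.21% of all genes), all higher in clone I, and the median was 0.18. CMPK2, a mitochondrial nucleotide kinase, gave 5.66, 5.55 and 5.46 in clone I and 4.65, 4.90 and 4.63 in clone II, and both clones were below Mock (6.53 to 6.57) and Parental cells (6.39 to 6.48). The difference between the clones was 0.83 ± 0.08 (adjusted p = 4.28e-05). RSAD2, the antiviral protein viperin, gave 5.72, 5.73 and 5.92 against 4.85, 5.07 and 5.03 (0.80 ± 0.10, adjusted p = 0.000497), with Mock at 4.91 to 5.29. IFIT3, an RNA-binding effector, gave 7.17, 7.30 and 7.13 against 6.41, 6.67 and 6.76 (0.59 ± 0.09, adjusted p = 0.00232), and here clone I overlapped Mock (7.11 to 7.24). The controls thus stood above, below and level with clone I in turn.

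Other members differed in size and direction. MX1 and OAS1, which are commonly used as interferon reporters, gave -0.08 and 0.11, IRF7 gave -0.08 and ISG15 gave -0.27 (adjusted p = 0.0535), none past the test. With p adjusted over 1 probe set per gene, on the mean of each gene's probe sets, after quantile normalisation, or without clone II replicate 2, 1 member passed as lower in clone I. Called members fell to 4 without clone I replicate 2 and to 5 without clone I replicate 3, clone II replicate 1 or clone II replicate 2. The core of the interferon-stimulated response element, searched on either strand, was in the promoter of 13 of 18 list genes matched, against 3.71% of all genes, and in 5 of the 7 called genes matched. Among 16 genes of the RNA interference machinery, 0 passed (limma; 5 at an unadjusted p under 0.05), and DICER1, DROSHA and AGO2 gave -0.0028, 0.07 and -0.21.

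The MHC class I presentation pathway, in which proteasome peptides are carried by TAP and loaded onto HLA molecules, had 8 of 13 genes past the test. This was 61.5%, against 5.21% of all genes. All 8 were higher in clone I, and the list's median was 0.30. HLA-B gave 9.70, 9.72 and 9.74 in clone I and 9.27, 9.26 and 9.39 in clone II (0.42 ± 0.06, adjusted p = 0.00162), with clone II overlapping Parental cells (9.34 to 9.40) and clone I below Mock (9.76 to 9.79). Its probe sets 208729_x_at and 211911_x_at gave 0.42 and 0.38, but class I genes are near-identical in sequence and such probes can share signal between them. NLRC5, the transactivator of class I genes, was 0.42 higher (adjusted p = 0.0159), a call that ended without clone I replicate 1 (adjusted p = 0.0812) or clone II replicate 2 (adjusted p = 0.0752). B2M and TAP1 gave 0.26 and 0.13 and did not pass. The list's count depended on single arrays, with 2 without clone I replicate 1, 4 without clone I replicate 2 or 3 or clone II replicate 1, 3 without clone II replicate 2 and 8 without clone II replicate 3, and it was 5 without probe sets named _x_at or _s_at. Over all settings other than leaving out an array, it ran from 0 to 9.

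Further genes among the 15 highest in clone I came from no common list. EMP1, an epithelial membrane protein, gave 9.19, 9.22 and 9.18 in clone I, 7.72, 7.82 and 7.89 in clone II and 8.68 to 8.83 in Mock, on 201324_at (1.38 ± 0.07, adjusted p = 1.58e-07), and 1.37 on 201325_s_at. CCN3, a secreted matricellular protein, gave 9.01, 8.90 and 8.94 against 7.64, 7.75 and 7.75 (1.24 ± 0.06, adjusted p = 1.71e-07). Clone II overlapped Mock (7.66 to 7.75) for it. EPPK1, a cytoskeletal linker of epithelia, and the retinaldehyde reductase DHRS3 were 1.15 and 1.14 higher (adjusted p = 1.47e-05 and 3.42e-05).

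A pair of inward-rectifier potassium channels differed as well. KCNJ2 gave 6.14, 6.00 and 6.02 in clone I, 4.93, 4.77 and 4.96 in clone II and 5.96 to 6.14 in Mock (1.17 ± 0.09, adjusted p = 4.54e-06), so clone II was the group apart. KCNJ16 gave 6.79, 6.83 and 6.81 against 5.46, 5.66 and 5.44 (1.29 ± 0.08, adjusted p = 1.23e-06), with Mock at 5.23 to 5.46 and Parental cells at 7.18 to 7.31. MPZL2, a junctional adhesion molecule, was 1.10 higher in clone I (adjusted p = 1.51e-06).

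SELENOP and LEMD1 had the largest differences of all. SELENOP, a secreted selenium carrier, gave 5.99, 6.03 and 6.03 in clone I, 3.86, 4.11 and 4.56 in clone II, 4.88 to 5.07 in Mock and 5.61 to 5.89 in Parental cells on 201427_s_at (1.84 ± 0.14, 3.58-fold, adjusted p = 4.30e-06). Its other probe sets, 229620_at and 231669_at, gave 0.30 and 0.13 at means between 1.75 and 2.27 and did not pass. LEMD1, a cancer-testis gene, gave 6.15, 6.32 and 6.09 against 4.26, 4.64 and 4.60 (1.69 ± 0.11, adjusted p = 1.31e-06), with Mock at 5.10 to 5.39 between the clones. For both genes Mock lay between the clones without overlap.

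The genes lowest in clone I relative to clone II differed by less. CKB, the brain-type creatine kinase, gave 7.09, 6.88 and 6.99 in clone I, 7.79, 7.81 and 7.75 in clone II, 8.45 to 8.59 in Mock and 7.21 to 7.41 in Parental cells (-0.79 ± 0.08, adjusted p = 4.15e-05), so that the 4 groups had 4 separate levels. MFAP2, a microfibril protein, gave 6.52, 6.61 and 6.58 against 7.34, 7.22 and 7.23 (-0.69 ± 0.07, adjusted p = 4.19e-05) and was above Mock (6.23 to 6.37) in both clones. SYBU, which links cargo to kinesin, gave 6.51, 6.40 and 6.42 against 7.11, 7.10 and 7.40 (-0.76 ± 0.08, adjusted p = 0.000138). GLIS3, a zinc finger transcription factor, KLHL13, a ubiquitin ligase adaptor in mitosis, and MT1X, a metallothionein, gave -0.64, -0.61 and -0.59 and passed.

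FGFR2, a fibroblast growth factor receptor, gave 6.99, 6.99 and 7.03 against 7.56, 7.48 and 7.74 (-0.59 ± 0.07, adjusted p = 0.000498). Its probe sets 203638_s_at and 211401_s_at were also lower, by -0.38 and -0.43 (adjusted p = 0.00335 and 0.0372). The others did not pass, the highest being 208229_at with 0.34. In the fit without probe sets named _x_at or _s_at, 211398_at, with means of 4.00 and 4.24, gave -0.24 (adjusted p = 0.488). FGFR4 was lower by -0.36 (adjusted p = 0.0104, and 0.0526 without clone I replicate 2). In the list of receptor tyrosine kinases and ephrins 6 of 34 passed (17.6%, against 5.21% of all genes). Of these, 4 were higher and 2 lower in clone I, and the list's median was -0.01. Leaving out 1 array at a time gave 1 to 2 higher and 1 to 3 lower members. GAL, the neuropeptide galanin, gave 7.91, 7.91 and 7.86 against 8.37, 8.39 and 8.55 (-0.54 ± 0.08, adjusted p = 0.00104), with both clones below Mock (9.09 to 9.33). STK32B, a kinase, gave 7.76, 7.86 and 7.85 against 8.40, 8.39 and 8.47 (-0.60 ± 0.07, adjusted p = 0.000336), with both clones above Mock (6.36 to 6.60).

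**Figure D5:**
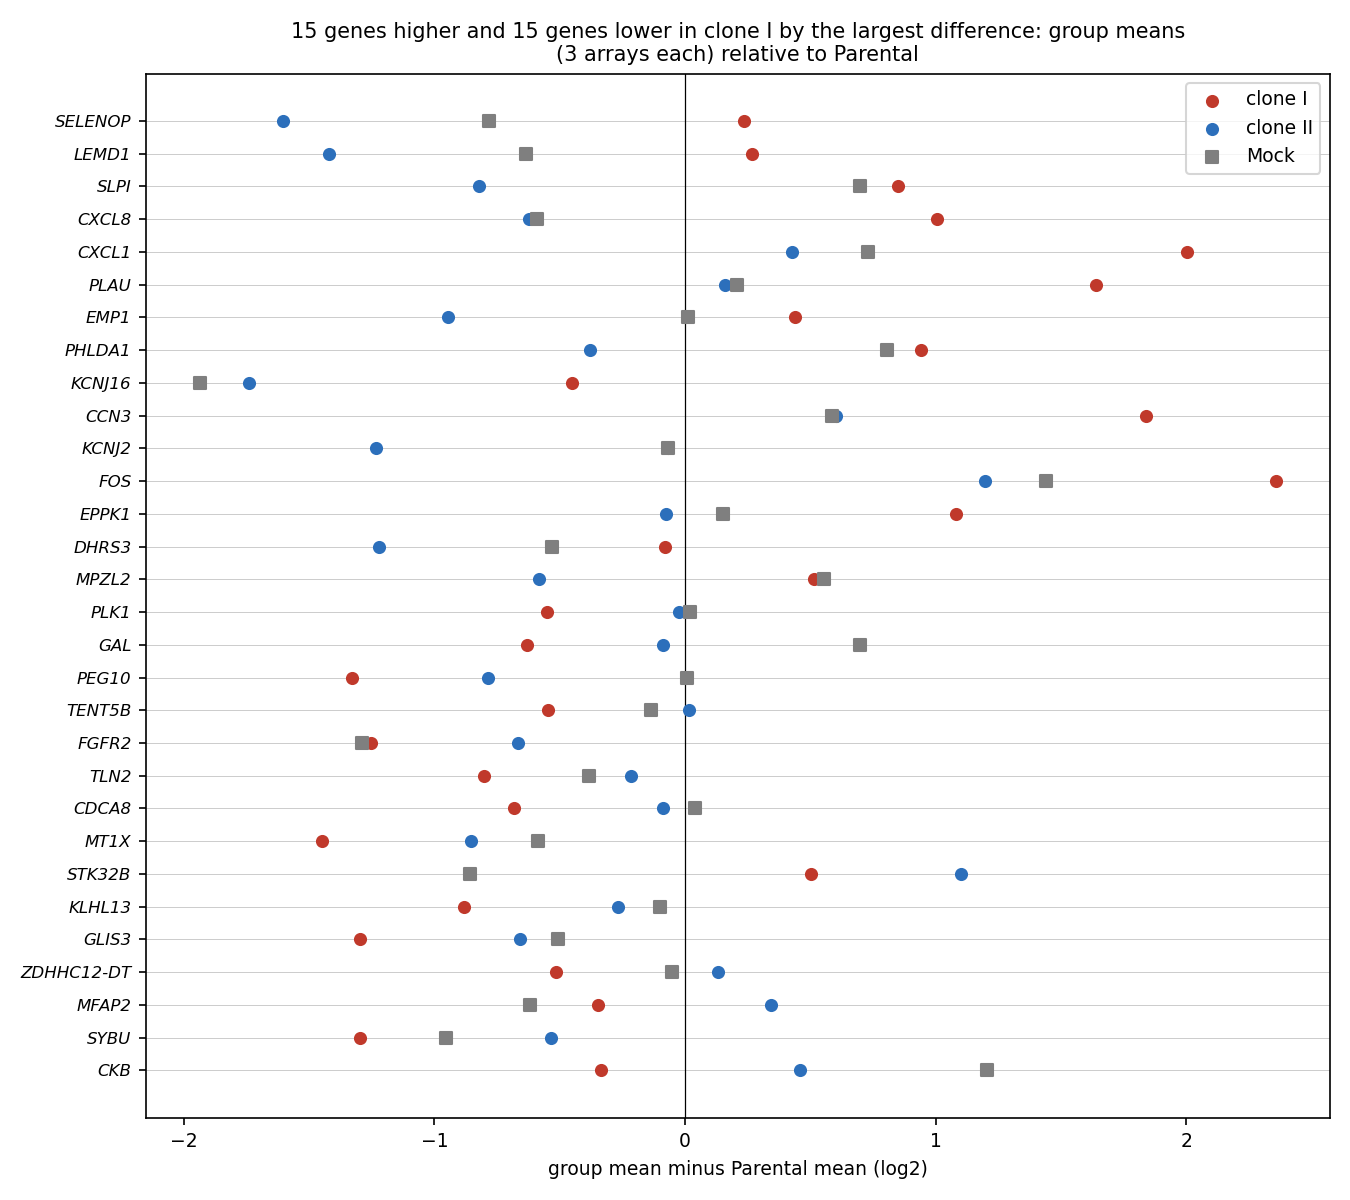
Group mean minus the Parental mean (log2, x axis) for the 15 genes higher and the 15 lower in clone I with the largest differences (y axis); circles are the clones and squares Mock, 3 arrays each. Mock lies near clone II for CXCL8, PLAU and CCN3 and near clone I for KCNJ2 and MPZL2.

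The position of Mock divided these genes. For CXCL8, PLAU and CCN3 clone I differed from Mock by 1.60, 1.43 and 1.25 (adjusted p = 1.5e-09, 2.2e-08 and 1.7e-08) and clone II by -0.03, -0.05 and 0.02 (adjusted p = 0.78, 0.71 and 0.89). For KCNJ2, MPZL2 and PHLDA1 clone II differed from Mock by -1.17, -1.14 and -1.19 (adjusted p = 7.8e-07, 1.5e-07 and 6.3e-07) and clone I by 0.0017, -0.04 and 0.13 (adjusted p = 0.99, 0.74 and 0.32). For PLK1 and CDCA8 clone I differed from Mock by -0.57 and -0.72 (adjusted p = 8.2e-05 and 6.3e-06) and clone II by -0.04 and -0.13 (adjusted p = 0.71 and 0.2). These comparisons share the arrays of the clones and of Mock, and a p above the threshold does not show that a clone equalled Mock.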

How the data were processed

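Total RNA of 12 samples, 3 per group, was hybridised to 1 Affymetrix array each. The values are log2 expression values that the authors deposited for 54675 probe sets, made with RMA under R 2.6.0 per the submitters' processing notes; RMA corrects background, normalises quantiles across arrays and summarises probes, so the arrays are not independent of each other and small differences can be compressed. For other upstream steps, the sources used here are silent. Gene symbols came from the platform annotation, checked against RefSeq through Entrez numbers (41037 matched); 41091 probe sets had 1 symbol, 1801 had several and 11721 had none, besides 62 controls. Means per group were fitted over all 12 arrays with limma 3.58.1 in R 4.3.3 (8 residual degrees of freedom), with no covariate, and p-values were adjusted by Benjamini-Hochberg over all single-symbol probe sets; a gene kept the adjusted p of its brightest probe set. The number of arrays limits the precision. The script was tested on simulated data. Named genes were CXCR4, the CXCR4 axis list, the 15 largest called differences in each direction without overlap and with the higher clone mean at least 6, and up to 3 called members per list and direction; other members named, and those named as not past the test, were picked as examples after their values were seen. Members, lists and tests were chosen with earlier results of these data known, so no list's direction is independent support. Lists are described by counts and medians, with no set test. Alternatives covered probe set choice, dim probe sets, normalisation, variance model, threshold and leaving out each array. Promoters were taken from RefSeq, and motifs were searched on both strands.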

Additional observations from a re-analysis of the deposited data

Results flagged for a closer look

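For 9 of the named genes the clones passed the test against Mock in opposite directions. Most named genes were picked for a called difference between the clones, and such a call was required here too. That difference is therefore no further support, and such genes were not counted among all 19775. In 8 of them clone I was above Mock and clone II below it. These were SELENOP (clone I minus clone II 1.84), LEMD1 (1.69), EMP1 (1.38), DHRS3 (1.14), CXCL2 (1.05), CDH1 (0.97), IER3 (0.80) and LAMB3 (0.69). For EMP1 the values against Mock were 0.43 in clone I (adjusted p = 0.00069, limma) and -0.96 in clone II (adjusted p = 5e-07), and for CDH1 they were 0.28 (0.017) and -0.70 (1.8e-05). For SELENOP they were 1.02 (0.00015) and -0.82 (0.00097). SYBU (-0.76) was the reverse, with -0.34 in clone I (0.012) and 0.42 in clone II (0.0037). SELENOP and CXCL2 passed on 1 of their probe sets each, as described above. LEMD1, DHRS3, IER3, LAMB3 and SYBU had a single probe set each. EMP1 and CDH1 passed on more than 1 probe set.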

How the results depend on the processing

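The count of genes past the test was 1031, and 1735 or 1681 among probe sets with a mean log2 of at least 6 or in the upper 50% by mean, 1675 with a trended and robust variance, 488 with only the 6 clone arrays in the fit, 106 against a minimum fold of 1.2 and 419 at an adjusted p under 0.01. In probe sets the same settings gave 2669, 2675, 2697, 825, 155 and 657 against 1687, and 941 without those named _x_at or _s_at. Calls of at least 2-fold numbered 23 on the mean of each gene's probe sets, in genes as in the same fit counted for probe sets, and 24 probe sets or 17 genes with a mean of at least 6. Of the 147 called genes of the lists, 88 were called without _x_at and _s_at probe sets, 87 with the 6 clone arrays alone, 23 against the minimum fold and 69 at the stricter threshold. Over the same kinds of setting, higher members ran from 5 to 14 for immediate-early genes and 2 to 13 for junctions and keratins. They ran from 2 to 10 for interferon-stimulated genes, 2 to 9 for integrins and laminins, and 2 to 8 for ovarian markers and for proteases. Leaving out 1 array at a time gave 844 to 2035 probe sets, 50 to 65 of them at least 2-fold, 528 to 1225 genes, 32 to 42 of them at least 2-fold, and 85 to 153 genes of lists. Deviations from the group means correlated at -0.08 to 0.03 between same-numbered arrays of the clones and at -0.11 to 0.15 between differently numbered ones. With 3 same-numbered pairs, these values cannot show whether the replicate numbers pair the arrays. The replicate block gave 1404 probe sets and 855 genes. The share of called genes higher in clone I was 68.3%, between 61.8% and 74.5% under quantile normalisation and median centring, and 91.5% against the minimum fold. Of 96 named genes past the test, 31 passed in each setting run. The sign turned for CXCL2 (-0.035), ITGB4 (-0.18) and MEG3 (0.018) without _x_at and _s_at probe sets, and for KITLG (-0.023) on the mean of its probe sets; other settings kept the sign. The cause of these changes was not tested, except that the filters change the number tested and the leave-one-out and clone-only fits have fewer arrays. Depth does not apply, and probes near the lower end of the scale show little of a difference.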

Other observations

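Some lists outside the groups above also held calls, to be read beside the 5.21% of all genes that passed. Of 17 p53 targets, 4 passed, all higher in clone I, among them the death receptor FAS (10.17, 10.29 and 10.27 against 9.51, 9.64 and 9.75, difference 0.61, adjusted p = 0.000302, limma; 0.41 and 0.0751 without probe sets named _x_at or _s_at), while CDKN1A and MDM2 gave -0.0046 and -0.01; the count was 2 without clone I replicate 3 or clone II replicate 1 or 2. Of 33 TGF-β and BMP genes, 4 were higher, including the receptor TGFBR2 (9.16, 9.18 and 9.13 against 8.56, 8.35 and 8.53, 0.68, adjusted p = 0.000259), and 1 was lower, the differentiation inhibitor ID3 (-0.44, adjusted p = 0.0062). The other probe set of TGFBR2, 207334_s_at, gave 0.40 and did not pass (adjusted p = 0.303). Leaving out 1 array at a time gave 2 to 3 higher members of this list. Of 30 amino acid stress genes, 7 were higher in clone I, among them the cystine transporter SLC7A11 (0.45, adjusted p = 0.00563), and 1 was lower, the neutral amino acid transporter SLC7A5 (-0.37, adjusted p = 0.00923, and 0.0514 without clone I replicate 2); the count of higher members was 2 without any of clone I replicates 1 to 3 or clone II replicate 1, and 1 without clone II replicate 2. Of 26 HOX genes, 2 passed (7.69%, near the 5.21% of all genes), both higher in clone I. HOXB3 gave 0.36 on its brightest probe set, but -0.08 on 208414_s_at (adjusted p = 0.815) and 0.14 on the mean of both (adjusted p = 0.307). HOXB2 gave 0.33 and did not pass without clone I replicate 3 (adjusted p = 0.0593). Cholesterol and fatty acid genes (23) and Notch genes (26) had 0 calls (limma; 5 and 5 at an unadjusted p under 0.05).

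Genes were also read in their order along the chromosomes, in 19144 windows of 25 neighbours. The window medians lay between -0.07 and 0.07 from the 5th to the 95th percentile. The highest were those from ZNF614 to ZNF347 (0.16, 5 called higher), from BCAP29 to SMIM30 (0.15) and from LINC02499 to PPEF2 (0.14, 6 called higher), which holds CXCL8, CXCL1, CXCL2 and CXCL3. The lowest were from SDF4 to GNB1 (-0.19, 6 called lower), from PADI4 to OTUD3 (-0.19) and from TMEM39B to FNDC5 (-0.18).

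Of 10523 genes with more than 1 probe set, ING1, a chromatin reader, had calls in both directions, -0.28 on 210350_x_at (adjusted p = 0.0446) and 0.48 on 244177_at (adjusted p = 0.014). Of 662 such genes called on their brightest probe set, 90 had all probe sets called the same way, and 339 genes were called on another probe set only. Among the 11721 probe sets with no symbol, 150 passed when all probe sets were tested together (1.28%).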
